A study of Homo sapiens with 6 samples.

Results

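The genes described are 8 members of the Janus kinase (JAK) and signal transducer and activator of transcription (STAT) families, the kinases JAK1, JAK2 and TYK2 and the transcription factors STAT2, STAT3, STAT5A, STAT5B and STAT6. They were found by gene symbol, and 8 of the 16390 genes listed in each library were members. The cells were SW780, an established line from a human bladder cancer, which the study counts among the luminal lines. RC48 (disitamab vedotin) is an antibody-drug conjugate that binds the receptor ERBB2 and carries monomethyl auristatin E, which blocks microtubules. The total RNA of 3 samples kept with RC48 (25 µg/ml) and of 3 Control samples of the same line gave 1 library each, and the exposure time of this experiment is not given in the sources used here. The comparison was made to learn how the JAK/STAT3 pathway responds when cells meet the conjugate, and these libraries measure mRNA only, not STAT protein or its phosphorylation.

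JAKs are tyrosine kinases bound to the inner side of cytokine and interferon receptors. When a ligand joins the receptor chains, the kinases phosphorylate the receptor and then the STAT proteins, which pair, move to the nucleus and bind DNA. STAT3 is best known for signals of the IL-6 family, STAT2 for type I and type III interferon as a part of the complex ISGF3 with IRF9, STAT5A and STAT5B for growth hormone, prolactin and several interleukins, and STAT6 for IL-4 and IL-13. Several STAT genes, STAT3 among them, are themselves induced by the signals they carry.

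Estimated read counts summed to between 16453233 and 17988030 per library, a 1.09-fold range, and 13055 genes passed the filter on low counts and were tested. Levels are given as CPM (counts scaled to library size by edgeR's TMM method), and a gene was called when the Benjamini-Hochberg adjusted p of edgeR's quasi-likelihood test over all tested genes was under 0.05. The chi-square of a pair of libraries divided by its degrees of freedom, near 1 under sampling noise alone, was between 1.47 and 10.98 for pairs of Control libraries and between 20.7 and 124.4 for pairs of RC48 libraries. In RC48 replicates 1 and 3, but not in replicate 2, genes with GC-rich transcripts stood higher against the Control mean (Spearman's rho across 13000 genes of 0.74, 0.57 and -0.01), and the members and the lists of pathway genes are given with and without it. Nothing in the labels says that the libraries of a group came from separate cultures, so p-values measure the spread between these libraries, which may be technical. In bulk RNA, fewer cells of a type and less RNA per cell cannot be told apart.

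STAT5A and STAT5B had to be looked at as sequences first, because their mRNAs share a stretch of identical bases that short reads cannot assign. In GENCODE transcripts on GRCh38, the longest identical run of the coding sequences was 429 bases. It covered bases 1206 to 1634 of STAT5A transcript ENST00000345506, in 4 exons at chr17:42299764-42301277 on the plus strand, and bases 733 to 1161 of STAT5B transcript ENST00000293328, in 4 exons at chr17:42218328-42219829 on the minus strand. The first 300 bases of the run are shown once, since both genes carry the same letters, and they are shown because a read from here fits either gene.
STAT5A and STAT5B, first 300 bases of the shared run: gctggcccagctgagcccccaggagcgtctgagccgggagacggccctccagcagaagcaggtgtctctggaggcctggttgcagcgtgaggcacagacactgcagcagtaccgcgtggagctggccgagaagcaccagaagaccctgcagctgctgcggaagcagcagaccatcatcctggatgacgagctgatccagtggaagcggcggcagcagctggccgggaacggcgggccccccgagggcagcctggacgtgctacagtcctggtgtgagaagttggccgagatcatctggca
The edges of the run show how little the genes differ around it. Each line gives 60 bases of coding sequence, with 40 outside the run and 20 inside it, and capitals mark the bases that differ between the genes, 2 at the 5′ edge and 1 at the 3′ edge.
STAT5A, 5′ edge: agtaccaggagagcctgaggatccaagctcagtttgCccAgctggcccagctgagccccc
STAT5B, 5′ edge: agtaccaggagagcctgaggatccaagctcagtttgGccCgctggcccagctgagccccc
STAT5A, 3′ edge: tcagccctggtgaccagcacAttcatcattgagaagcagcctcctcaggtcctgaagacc
STAT5B, 3′ edge: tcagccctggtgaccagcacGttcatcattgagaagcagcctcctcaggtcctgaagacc
Of all 50-base words of the transcript, 11.9% of STAT5A and 10.03% of STAT5B occurred in the other gene and in no further gene. In JAK1, JAK2, TYK2 and STAT2, 0 words were found in another gene, and the shares were 1.48% for STAT3 and 0.50% for STAT6. The genes are also neighbours. STAT5B (chr17:42199177-42288370, minus strand) and STAT5A (chr17:42287439-42311943, plus strand) overlap by 932 bases on opposite strands in RefSeq's annotation of GRCh38.p14, and STAT3 (chr17:42313324-42388442, minus strand) begins 1380 bases beyond STAT5A. Whether strand was kept in the libraries is not given in the sources used here, so reads from the overlap cannot be told apart either.

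Compared per length, in TPM, which divides counts by transcript length, STAT6 and STAT3 were the most abundant members and JAK2 the least. The mean TPM of the Control libraries was 72.8 ± 6.84 (SD, n = 3) for STAT6, 60.1 ± 9.08 for STAT3 and 54.5 ± 6.14 for JAK1. These neighbours in the order overlapped between libraries. STAT2 followed at 38.1 ± 5.88 TPM, STAT5B at 34.6 ± 3.93 TPM and TYK2 at 32.8 ± 3.51 TPM, again with overlap among neighbours, while JAK1 lay above STAT2 in every Control library. STAT5A, at 9.80 ± 0.530 TPM, and JAK2, at 3.04 ± 0.286 TPM, each stood apart from their neighbours. STAT3 thus had more TPM than 82.7% of the listed genes and JAK2 more than 33.3%. In the RC48 libraries STAT6, STAT3, JAK1 and STAT2 kept ranks 1 to 4, and TYK2 (48.0 ± 14.3 TPM) and STAT5B (34.5 ± 2.51 TPM) exchanged places with overlapping libraries. The TPM of RC48 replicate 2 was computed here from its counts, and its deposited TPM was not analysed here.

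Among the JAK kinases, 0 of 3 passed the test, beside 2.21% of all tested genes called in either direction. JAK1 (chr1:64833229-65067746, minus strand), the kinase shared by gp130, interferon and common gamma chain receptors, measured 144, 139 and 157 CPM in Control replicates 1, 2 and 3 and 151, 182 and 175 CPM in RC48 replicates 1, 2 and 3. The groups overlapped, since RC48 replicate 1 lay below Control replicate 3. The log2 fold change of JAK1 was 0.21 ± 0.12 (SE), with a 95% interval from -0.08 to 0.49 and an adjusted p of 0.333. JAK2 (chr9:4984390-5129948, plus strand), which serves the receptors of erythropoietin, growth hormone and others, measured 8.09, 7.71 and 8.60 CPM in Control and 4.86, 10.2 and 8.85 CPM in RC48. RC48 replicate 1 was the lowest and replicate 2 the highest of the 6 libraries for JAK2. Its log2 fold change was -0.03 ± 0.26 (SE), with an interval from -0.64 to 0.58 that leaves room for a change in either direction (adjusted p 0.948).

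TYK2 (chr19:10350533-10380572, minus strand), the kinase of the type I interferon, IL-12 and IL-23 receptors, measured 67.6, 75.9 and 76.5 CPM in Control and 161, 80.4 and 103 CPM in RC48. All RC48 libraries lay above all Control libraries, replicate 1 far above and replicate 2 only just. The log2 fold change was 0.64 ± 0.24 (SE) with an interval from 0.08 to 1.203, and the gene did not pass (adjusted p 0.226). The mean of the RC48 libraries was 115 ± 41.5 CPM, against 73.3 ± 4.99 CPM in Control.

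STAT2 and STAT3 were the members that rose by the test. STAT2 (chr12:56341597-56360107, minus strand) measured 85.6, 81.6 and 98.4 CPM in Control and 150.0, 134 and 146 CPM in RC48. The lowest RC48 library lay well above the highest Control library. STAT2 was 1.62-fold higher (95% interval 1.33 to 1.98), a log2 fold change of 0.70 ± 0.12 (SE) with an adjusted p of 0.0346.

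STAT3 measured 153, 145 and 175 CPM in Control and 242, 250.1 and 231 CPM in RC48. Here too all RC48 libraries lay above all Control libraries, and RC48 replicate 2, the library without a GC trend, was the highest. STAT3 was 1.53-fold higher (interval 1.27 to 1.85), a log2 fold change of 0.61 ± 0.12 (SE) with an adjusted p of 0.0440. Of all tested genes, 7.08% had a larger log2 fold change than STAT3. Neither call held in every fit with a library left out. Both were kept without RC48 replicate 1 or 2, and lost without any single Control library or RC48 replicate 3. The adjusted p of edgeR was then 0.104 to 0.251 for STAT2 and 0.118 to 0.309 for STAT3. The 288 calls over all genes also fell, to 68 to 78 without a Control library and 93 without RC48 replicate 3. With a library left out, the log2 fold change stayed between 0.64 and 0.78 for STAT2 and between 0.56 and 0.69 for STAT3. Over 17 alternatives the log2 fold change stayed between 0.60 and 0.78 for STAT2, which was called in 11, and between 0.47 and 0.69 for STAT3, which was called in 7.

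**Figure D1:**
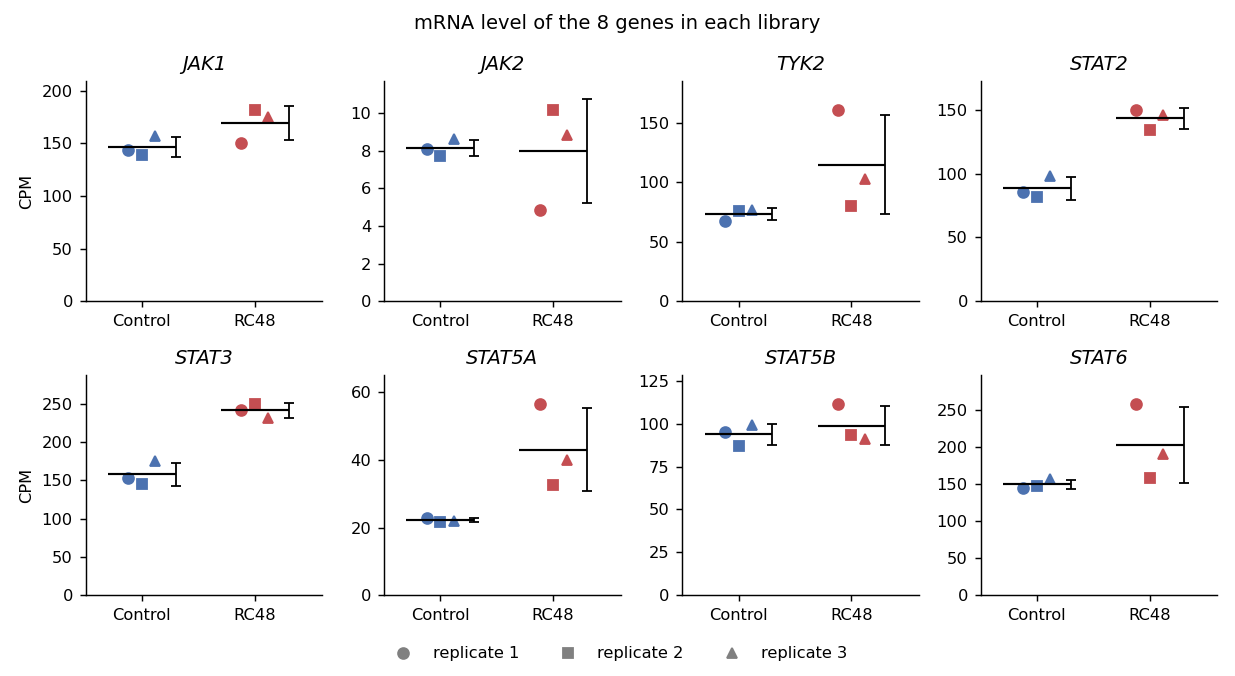
CPM of each gene (vertical axis, from 0) in the 3 Control libraries (blue) and the 3 RC48 libraries (red), with the symbol giving the replicate number, the line the mean and the bar 1 SD. STAT2 and STAT3 show compact RC48 groups above Control, while TYK2, STAT5A and STAT6 are spread out with RC48 replicate 1 on top and replicate 2 nearest to Control.

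In all, 2 of 8 members passed the test, both higher, beside 2.21% of all tested genes in either direction, 1.98% higher and 0.23% lower. For 5 of 8, TYK2, STAT2, STAT3, STAT5A and STAT6, all RC48 libraries lay above all Control libraries, as they did for 17.4% of all tested genes. The same 5 had an unadjusted p under 0.05, as had 19.1% of all tested genes. The median log2 fold change of the members was 0.52, beside 0.02 over all tested genes.

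**Figure D2:**
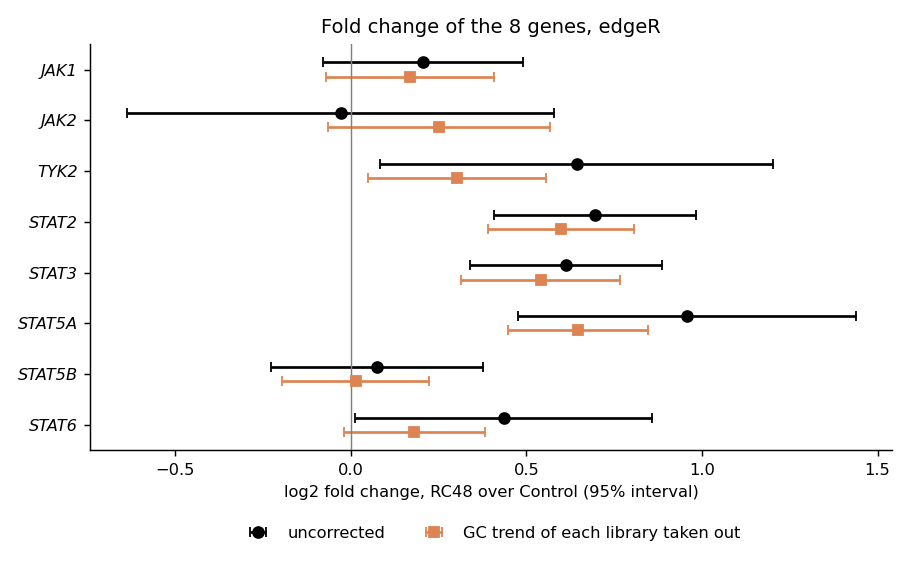
Log2 fold change of RC48 over Control (horizontal axis) for the 8 genes with 95% intervals, from edgeR on the counts (black circles) and with the GC trend of each library taken out (orange squares). With the trend taken out, the intervals of TYK2, STAT2, STAT3 and STAT5A stay above 0, TYK2 moves to 0.30, and STAT6, at 0.18, has an interval that reaches below 0.

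STAT5A, the more weakly expressed of the STAT5 pair, measured 22.8, 21.7 and 22.0 CPM in Control and 56.7, 32.6 and 39.97 CPM in RC48. All RC48 libraries were higher, and they differed from each other much more than the Control libraries did. The log2 fold change was the largest of the 8 members, 0.96 ± 0.21 (SE, interval 0.48 to 1.44), but its adjusted p was 0.0696, above the threshold. STAT5B measured 95.1, 87.0 and 99.3 CPM in Control and 112, 93.4 and 91.1 CPM in RC48, with overlapping groups. Its log2 fold change was 0.07 ± 0.13 (SE), the interval from -0.23 to 0.38 limits a rise of STAT5B to 1.30-fold, and its adjusted p was 0.717.

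The split between the STAT5 genes rests on the assignment of shared reads. The estimated counts of STAT5A and of STAT5B were not whole numbers in 6 of 6 libraries, while their sum was whole in 6 of 6, as a division of reads between these genes alone gives. The sums were 2039, 1877 and 2060 counts in Control and 2774, 2206 and 2354 counts in RC48. Of these, STAT5A was given 19.4%, 19.99% and 18.1% in Control and 33.6%, 25.8% and 30.5% in RC48. The share was higher in every RC48 library, replicate 2 included.

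**Figure D3:**
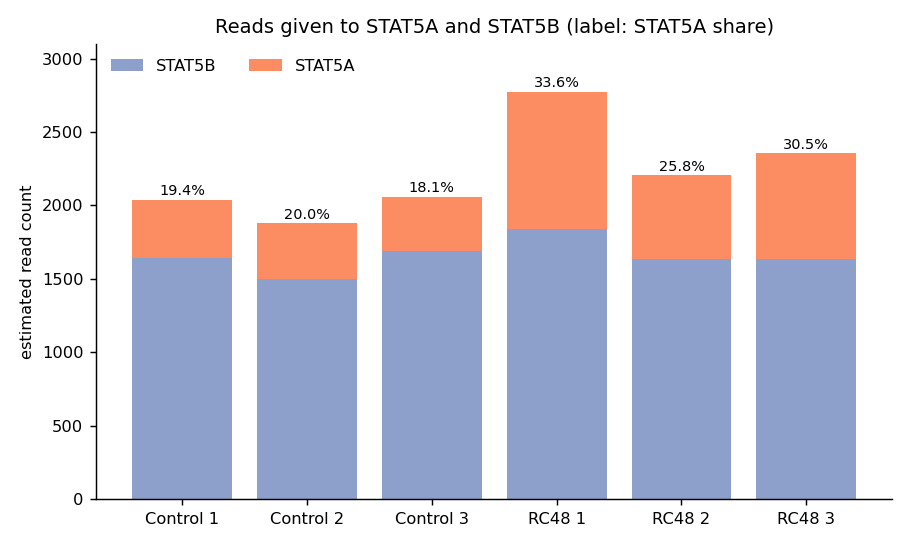
Estimated read counts of STAT5B (blue) and STAT5A (orange) stacked for each of the 6 libraries, with the share given to STAT5A in percent above each bar. The STAT5B part is of similar height in 5 libraries and taller in RC48 replicate 1, while the STAT5A part is larger in all RC48 libraries.

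The ratio of STAT5A to STAT5B CPM was 0.238 ± 0.0146 (SD, n = 3) in Control and 0.432 ± 0.0793 in RC48. The log2 ratio was higher by 0.85 (interval 0.43 to 1.26). Its adjusted p was 0.0734 over the same ratio computed for all genes by limma. The exact permutation p was 0.1, the smallest that 3 against 3 libraries allow. This ratio was not computed with the GC trend taken out, and STAT5A has 59.3% GC against 50.7% for STAT5B. With the trend taken out, the log2 fold change was 0.65 for STAT5A and 0.01 for STAT5B. Counted as 1 gene, which does not depend on the split, STAT5A and STAT5B measured 116 ± 6.49 CPM in Control and 142 ± 23.2 CPM in RC48, with a log2 fold change of 0.29 (interval -0.04 to 0.62, adjusted p 0.290 in edgeR). This alternative was added after the data were seen. How the counting program divided reads of the shared stretch was not tested.

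STAT6 (chr12:57095408-57111362, minus strand) measured 145, 148 and 157 CPM in Control and 259, 158 and 191 CPM in RC48. The groups did not overlap, but RC48 replicate 2 exceeded Control replicate 3 by less than the Control libraries differed among themselves. The log2 fold change was 0.44 ± 0.18 (SE), with an interval from 0.01 to 0.86 and an adjusted p of 0.254.

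The spread among the RC48 libraries followed the GC content of the transcripts. TYK2, STAT5A and STAT6 have the GC-richest transcripts of the members, at 60.4%, 59.3% and 56.7% GC, and each was highest in RC48 replicate 1, next in replicate 3 and lowest in replicate 2. JAK2, with the lowest GC content (40.9%), ran the other way in replicate 1, where its log2 ratio to the Control mean was -0.73. STAT2, STAT3, STAT5B and JAK1 have between 50.2% and 52.1% GC. In replicate 2, where the trend was absent, the log2 ratio to the Control mean was 0.67 for STAT3, 0.60 for STAT2, 0.55 for STAT5A, 0.32 for JAK2, 0.31 for JAK1, 0.13 for TYK2, 0.08 for STAT6 and -0.004 for STAT5B.

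With the GC trend of each library taken out, 3 of 8 members were called, all higher, beside 6.8% of all tested genes called in either direction and 4.34% called higher. STAT2 stood at a log2 fold change of 0.60 (adjusted p 0.00748), STAT3 at 0.54 (adjusted p 0.0170) and STAT5A at 0.65 (adjusted p 0.00420). TYK2 at 0.30 (adjusted p 0.140), JAK2 at 0.25 (adjusted p 0.286), STAT6 at 0.18 (adjusted p 0.237), JAK1 at 0.17 (adjusted p 0.343) and STAT5B at 0.01 (adjusted p 0.935) did not pass. The STAT5 genes counted together gave 0.01 (adjusted p 0.977) in edgeR, but that fit set their GC content to that of STAT5A, 59.3%. Most of their reads were given to STAT5B, at 50.7% GC, so this value is not a corrected change of the sum. The source of the GC trend was not tested.

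**Figure D4:**
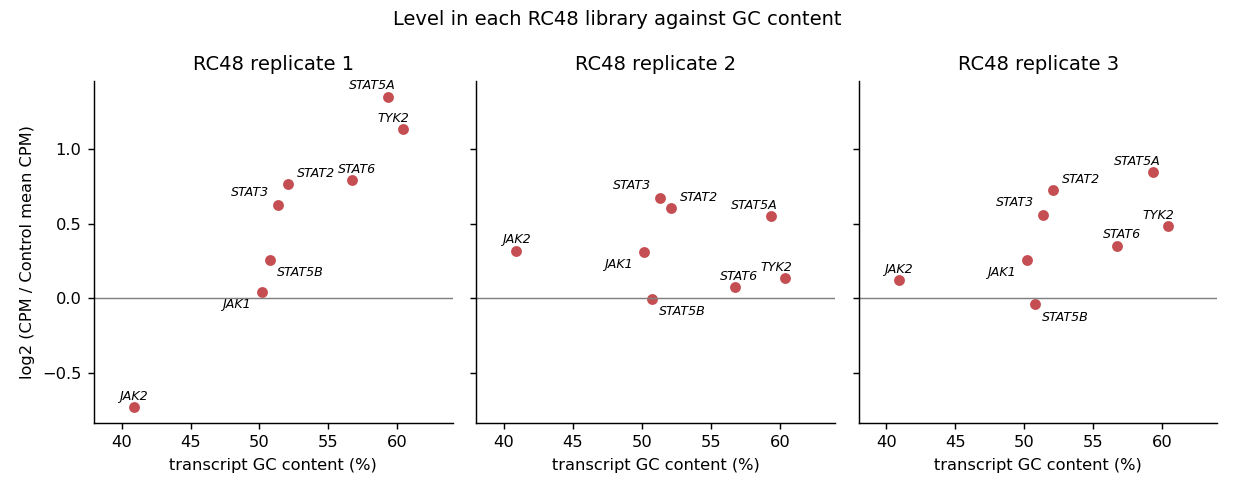
Log2 ratio of CPM to the Control mean (vertical axis) against transcript GC content in percent (horizontal axis), with 1 panel for each RC48 library and 1 point for each gene. The points climb with GC content in replicate 1, from JAK2 to STAT5A and TYK2, and do not in replicate 2, where STAT3, STAT2 and STAT5A are the highest.

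Each member was then set against STAT3 within the same library. STAT2 kept close to STAT3, and its CPM was 0.560, 0.561 and 0.564 of STAT3 CPM in the Control libraries and 0.620, 0.536 and 0.631 in the RC48 libraries. The log2 ratio differed by 0.08 (interval -0.26 to 0.42, adjusted p 0.645 in limma), which does not show that they changed alike. With its reads divided from those of STAT5A in a way that was not tested, STAT5B fell behind STAT3. Its CPM was 0.621, 0.598 and 0.569 of STAT3 CPM in Control and 0.462, 0.374 and 0.394 in RC48, lower in every RC48 library. The log2 ratio fell by 0.55 (interval -0.90 to -0.20, adjusted p 0.0139 in limma over the ratios of all genes to STAT3), and by 0.53 with the GC trend taken out (adjusted p 0.00409).

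JAK1 went from 0.940, 0.954 and 0.900 of STAT3 CPM in Control to 0.623, 0.727 and 0.756 in RC48. The log2 ratio of JAK1 fell by 0.41 (adjusted p 0.0397 in limma). JAK2 went from 0.0536, 0.0537 and 0.0499 to 0.0205, 0.0411 and 0.0387, a log2 ratio lower by 0.71 (adjusted p 0.0421 in limma). With the GC trend taken out JAK1 still passed (adjusted p 0.0158) and JAK2 did not (adjusted p 0.0985). The ratios of TYK2, STAT5A and STAT6 to STAT3 overlapped between the groups and did not pass. With the GC trend taken out 73.4% of all genes passed, STAT6 among them, with a log2 ratio lower by 0.36 (adjusted p 0.0316 in limma).

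So 3 of 7 ratios to STAT3 were called, beside 60.7% of all genes and 59.5% called lower, since a ratio to a gene that rose is lower for every gene that did not rise as much. The exact permutation p of each of these 3 ratios was 0.1, and 0.233 after adjustment over the 7 ratios. Without Control replicate 1 or Control replicate 2, 0 of 7 were called, and without Control replicate 3 or RC48 replicate 3, 1 was. Within the summed TPM of the 5 STAT genes, STAT5B took 16.1% ± 0.493 (SD, n = 3) in Control and 11.9% ± 0.487 in RC48, without overlap, and STAT3 took 27.8% ± 0.824 and 30.2% ± 3.87, with overlap. The share of STAT5B also rests on how reads were divided with STAT5A. The summed TPM of these 5 genes was 215 ± 25.9 in Control and 291 ± 17.97 in RC48.

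**Figure D5:**
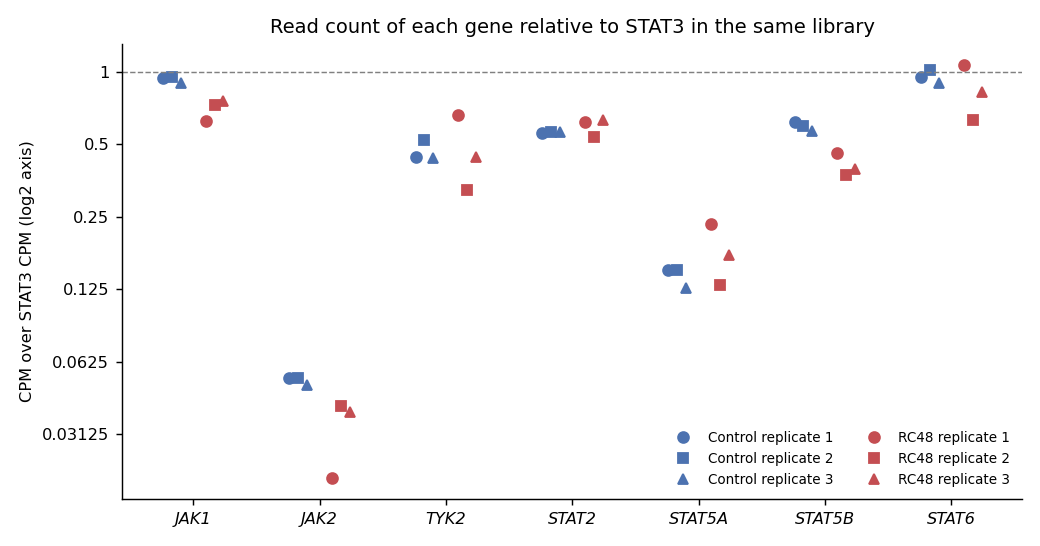
CPM of each gene divided by STAT3 CPM of the same library (log2 axis), for Control (blue) and RC48 (red) with the symbol giving the replicate number and a dashed line at 1. STAT5B, JAK1 and JAK2 are lower in every RC48 library, while STAT2 stays between 0.536 and 0.631 in all 6.

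Over 7 lists of pathway genes, 120 genes were tested and 33 called, 32 of them higher. The shares of all tested genes to set beside each list were 2.21% called, 1.98% higher and 0.23% lower. With the GC trend taken out they were 6.8% called and 4.34% higher. Of the 33, 21 were targets of ISGF3, the interferon-activated complex that contains STAT2 and IRF9. Of 36 tested targets 21 rose and 0 fell, with a median log2 fold change of 1.01, beside 0.02 over all tested genes. MX1 and MX2, GTPases that block viruses, rose from 26.8 ± 0.868 to 115 ± 4.31 CPM and from 10.1 ± 0.696 to 41.2 ± 1.80 CPM, with log2 fold changes of 2.10 (adjusted p 0.000229) and 2.02 (adjusted p 0.000487). RSAD2, which encodes the antiviral enzyme viperin, rose by 2.74, IFI6 by 1.82, IFI27 by 3.12 and IFI44L by 2.67 on the log2 scale, with adjusted p between 0.000578 and 0.00181. After the GC correction 30 of the 36 were called higher. Without any single Control library or RC48 replicate 3 the test called 8 or 9 of them. The DNA-binding partner of STAT2, IRF9, had 419, 419 and 424 estimated counts in Control and 1559, 1071 and 1254 in RC48, a log2 fold change of 1.62 (adjusted p 0.00446).

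Among 28 tested partners and inhibitors of the pathway, IRF9, USP18 and SOCS3 rose and 0 fell. USP18, which restrains the type I interferon receptor, rose by 0.93 on the log2 scale (adjusted p 0.0157). SOCS3, the inhibitor that STAT3 itself induces, had 198, 196 and 236 estimated counts in Control and 408, 374 and 397 in RC48, a log2 fold change of 0.89 (adjusted p 0.0255). The call on SOCS3 was lost with the GC trend taken out (adjusted p 0.0752), which left 2 called.

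Of 22 tested targets of STAT3, 5 rose and 0 fell, beside 1.98% and 0.23% of all tested genes, with a median log2 fold change of 0.38. After the GC correction 6 were called higher and 3 lower, beside 4.34% of all tested genes called higher, and the median was 0.16. Without the correction, 1 was called when any single Control library was left out and 2 when RC48 replicate 3 was. Without RC48 replicate 1 it was 11, and without RC48 replicate 2 it was 9. Over all tested genes, the calls without a Control library were 68 to 78, and without RC48 replicate 3 they were 93. They were 897 of 13147 without RC48 replicate 1 and 3726 of 13185 without RC48 replicate 2. ICAM1, an adhesion molecule, rose by 2.58 on the log2 scale (adjusted p 0.000637), the mucin MUC1 by 1.62 (adjusted p 0.0191) and the NF-κB cofactor BCL3 by 1.53 (adjusted p 0.0373). SOCS3 was the fourth and SAA1, an acute-phase protein, the fifth. SAA1 went from 1 count in all Control libraries to 73 in the RC48 libraries, a ratio of 72.4 with a counting interval from 12.6 to 2900. Genes of growth and survival in this list did not pass without the correction. CCND1 measured 399 CPM in Control and 400.1 CPM in RC48, and MYC had a log2 fold change of -0.52 (adjusted p 0.0655). BCL2L1 went the other way, from 240 to 331 CPM (log2 fold change 0.47, adjusted p 0.133), higher in every RC48 library. MCL1 (-0.16, adjusted p 0.509) and PIM1 (0.06, adjusted p 0.773) overlapped between the groups. With the GC correction BCL2L1 stood at 0.24 (adjusted p 0.109). After the correction, MYC (-0.77, adjusted p 0.0104), BIRC5 (-0.38, adjusted p 0.0496) and FOS (-0.47, adjusted p 0.0487) were called lower. These genes of growth and survival were named after their values were seen. ICAM1, SAA1 and BCL3 are also known as NF-κB targets.

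Of 9 tested targets of STAT5, 0 passed edgeR's test, and the median log2 fold change was 0.06. An unadjusted p under 0.05 was found for 4, as for 19.1% of all tested genes. Of these, SOCS2, PIM2 and BCL2L1 were higher and MYC was lower. DESeq2 called 2, beside 744 of 13055 tested genes. After the GC correction MYC was called lower and the median turned to -0.03. Of 5 tested targets of STAT6, TGM2, which encodes transglutaminase 2, rose from 4.31 ± 0.253 to 21.8 ± 4.90 CPM (log2 fold change 2.34, adjusted p 0.00139), and it alone was called after the GC correction too. The lists share members, and SOCS3, IRF9 and USP18 stand in more than 1 of them.

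Upstream of the kinases, 2 of 23 tested receptors rose and 1 fell. The GC correction left 5 called higher and 1 lower, and the added ones, named after their values were seen, were the interferon gamma receptor IFNGR1 (0.88, adjusted p 0.000518), the oncostatin M receptor OSMR (0.59, adjusted p 0.0101) and IL6ST, which encodes gp130 (0.72, adjusted p 0.0202). Without any single Control library or RC48 replicate 3, 1 receptor was called. IL7R, which pairs with the common gamma chain, rose from 0.155 ± 0.0323 to 1.80 ± 0.392 CPM (log2 fold change 3.48, adjusted p 0.00270), at a count of 40 or less in every library. IL27RA rose by 0.89 on the log2 scale (adjusted p 0.0298). IL6R, the receptor that presents IL-6 to gp130, had 125, 107 and 109 estimated counts in Control and 65, 60 and 55 in RC48, and fell by 0.93 on the log2 scale (adjusted p 0.0411). Of 9 tested ligands, 3 rose, with and without the GC correction. These were IL23A, a subunit of IL-23 (log2 fold change 2.25, adjusted p 0.000637), CSF2, which encodes GM-CSF (4.66, adjusted p 0.00115), and LIF, an IL-6 family cytokine (1.05, adjusted p 0.0429). CSF2 had 1, 4 and 1 estimated counts in Control and 53, 52 and 57 in RC48. JAK3 and STAT4 were measured near the low end. Of these 2, 0 passed edgeR's test and 0 had an unadjusted p under 0.05, beside 2.21% and 19.1% of all tested genes. Their summed level was 3.82 to 4.92 CPM in Control and 4.43 to 4.95 CPM in RC48.

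Of the 20 list genes named above as called without the GC correction, 11 kept their call when each library was left out in turn, among them ICAM1, MX1, IL23A, CSF2, IL7R and TGM2. The call was lost in at least 1 such fit for IL27RA, IL6R, LIF, IRF9, USP18, SOCS3, SAA1, MUC1 and BCL3. IRF9 lost it only without Control replicate 3 (adjusted p 0.0645), SAA1 without any single Control library (up to 0.120), and the other 7 without any single Control library or RC48 replicate 3 (up to 0.252, for IL6R). The direction was the same in every alternative for all 20.

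Of 25 tested markers of 6 cell types, 1 was called, beside 2.21% of all tested genes. It was KRT20, a luminal keratin, which fell from 1.98 ± 0.0439 to 0.667 ± 0.290 CPM (adjusted p 0.0489). With the GC trend taken out, KRT20 was still called lower (adjusted p 0.0268). The fibroblast marker COL3A1 was then called higher (log2 fold change 0.62, adjusted p 0.00509). The summed luminal markers were 778 to 793 CPM in Control and 709 to 895 CPM in RC48, the basal markers, mostly CD44, 333 to 352 and 310 to 343 CPM, and the epithelial markers 6059 to 7032 and 6514 to 7531 CPM. The luminal factor FOXA1 (log2 fold change -0.44, adjusted p 0.194) and the epithelial EPCAM (-0.49, adjusted p 0.199) lay below Control in every RC48 library and did not pass. The leukocyte marker PTPRC had at most 1 estimated count in any library, and the fibroblast markers DCN and PDGFRB at most 2. The summed leukocyte markers were 22.9 to 23.6 CPM in Control and 26.6 to 45.7 CPM in RC48, most of it CD68, and the summed fibroblast markers, nearly all COL3A1, 273 to 309 and 377 to 464 CPM. The summed endothelial markers were 27.9 to 29.7 CPM in Control and 18.4 to 24.9 CPM in RC48. What part cells of another type had in the results was not tested. ERBB2, the target of RC48, measured 205 ± 3.05 CPM in Control and 229 ± 46.3 CPM in RC48 (adjusted p 0.519).

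Across the 6 libraries, STAT2 was the member whose log2 CPM ran most like that of STAT3 (Pearson's r of 0.98). It was followed by STAT5A (0.85), JAK1 (0.79), STAT6 (0.67), TYK2 (0.67), STAT5B (0.42) and JAK2 (-0.10). Of 9995 genes with a mean of at least 10 CPM, the 5 with the highest r were CHST15, FGFR2, HEG1, SHROOM3 and FEZ1, between 0.990 and 0.995. These values describe 6 libraries that share 2 groups, so any gene that separates the groups evenly scores high. HEG1 rose from 131 to 222 CPM (log2 fold change 0.76, adjusted p 0.0325) and FEZ1 from 5.38 to 15.2 CPM (adjusted p 0.00635). CHST15, FGFR2 and SHROOM3 had log2 fold changes of 0.63, 0.33 and 0.28 and did not pass.

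The promoters of STAT2 and STAT3, the members called without the GC correction, were searched on both strands for known binding patterns of STAT complexes. The patterns were TTCNNNGAA for most STAT pairs, TTCNNNNGAA for STAT6 and GAAANNGAAA for ISGF3. The 250 bases before the RefSeq start in GRCh38.p14 are shown in the direction of the gene.
STAT2, chr12:56360108-56360357, minus strand: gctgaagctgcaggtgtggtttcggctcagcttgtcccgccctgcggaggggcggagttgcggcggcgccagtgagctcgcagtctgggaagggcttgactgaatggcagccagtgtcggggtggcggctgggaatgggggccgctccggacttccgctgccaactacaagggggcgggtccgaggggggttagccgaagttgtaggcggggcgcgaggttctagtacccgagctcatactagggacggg
STAT3, chr17:42388443-42388692, minus strand: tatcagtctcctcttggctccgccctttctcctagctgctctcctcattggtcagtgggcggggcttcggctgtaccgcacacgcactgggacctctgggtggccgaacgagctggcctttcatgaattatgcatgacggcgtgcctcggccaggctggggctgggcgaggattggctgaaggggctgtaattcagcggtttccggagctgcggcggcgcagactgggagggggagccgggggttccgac
With the 50 bases after the start included, these windows held 0 matches of any of the 3 patterns. Among 35116 such windows of all genes, 7.66%, 6.44% and 3.57% held the respective pattern. Over the 15 windows of the 8 members there was 1 match, TTCNNNNGAA at 229 bases before a start of STAT5A. A pattern that is absent from these windows says nothing of sites elsewhere.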

How the data were processed

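The authors used SOAPnuke to filter, Bowtie2 to map and RSEM to count the reads, and the submitters' processing notes name hg38. The versions and the annotation are not given in the sources used here. The deposited values are estimated counts per gene as RSEM gives them, not normalized, 11.7% to 15.0% of them not whole per library, and were rounded to whole numbers here. The deposited TPM values, which the authors normalized for length and depth, were used for 5 libraries, and RC48 replicate 2 got TPM from its counts with effective lengths taken from the other libraries. Applied to RC48 replicate 3, this differed from the deposited TPM by a median of 0.0368 (absolute log2) over 12037 genes. The signed median, computed over deposited, was -0.0360, so the computed TPM tended to be the lower.

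RC48 was compared with Control, without covariates, by edgeR 4.0.16 (filterByExpr, TMM, quasi-likelihood test, Benjamini-Hochberg threshold 0.05) in R 4.3.3. Ratios to STAT3 were tested with limma 3.58.1 over all genes and with two-sided exact permutation tests, whose smallest p is 0.1. The counting interval of SAA1 is an exact binomial interval at 95% and covers counting error only. The correction for GC content subtracted each library's loess trend (span 0.3) on transcript GC as an offset, with GC known for 99.4% of the genes. The other alternatives were DESeq2 1.42.0, voom with quality weights, and limma on log2(TPM+1) and log2(TPM+0.1) of the 5 libraries with deposited TPM. Further ones were RLE or no scaling, other filters on low counts, a term for the replicate number and each library left out in turn.

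Of each pathway list, the 6 called genes with the smallest adjusted p were named, and all called genes where they were 5 or fewer. The members, lists and tests were chosen with earlier results of these data known. Transcripts were from GENCODE and promoters and positions from RefSeq (GRCh38.p14). The procedure was tested on simulated counts, with and without a GC trend, whose random spread was equal in both groups. Figures were drawn with matplotlib from the tables of results.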

Additional observations from a re-analysis of the deposited data

How the results depend on the processing

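The count of members called, 2, was 6 with voom, 0 with library sizes alone, 1 without a filter, 1 where each library needed 10 counts, 1 with the replicate block, and 0 to 5 with a library left out. The 288 calls over all genes became 744 with DESeq2, 8018 with voom, 2894 and 2829 with limma on log2(TPM+1) and log2(TPM+0.1), 888 with the GC correction, 555 with the replicate block and the GC correction, and 68 to 3726 with a library left out, the largest without RC48 replicate 2. Of the calls, 89.6% were higher, against 72.04% with DESeq2, 49.5% with voom, 28.4% and 27.7% on the TPM scales and 63.7% with the GC correction. Without RC48 replicate 2 the share was 49.97%, and without RC48 replicate 1 it was 67.6%. The fits on the TPM scales used the 5 libraries with deposited TPM, so they too were without RC48 replicate 2. Effects of the scale and of the missing library cannot be told apart there. The median log2 fold change of all genes, 0.02, was -0.09 and -0.11 on the TPM scales, a move of over 0.1. In the other alternatives it moved less. The 33 calls in the pathway lists became 89 with voom, 51 and 50 on the TPM scales, and 13 to 54 with a library left out. The members' median log2 fold change of 0.52 was 0.28 with the GC correction, 0.27 with block and GC correction together, and 0.29 to 0.58 with a library left out. The 3 called ratios to STAT3 became 1 with the replicate block, with or without the GC correction, and 0 to 3 with a library left out.

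Directions turned for members whose change was near 0. The log2 fold change of JAK2, -0.03, was 0.14 with voom, 0.25 with the GC correction, 0.24 with block and GC correction, and -0.24 to 0.22 with a library left out (0.01 without Control replicate 3, 0.22 without RC48 replicate 1). That of STAT5B, 0.07, was -0.015 with voom, -0.0062 and -0.0063 on the TPM scales and -0.031 to 0.12 with a library left out, lowest without RC48 replicate 1. The change of the TYK2 ratio to STAT3, -0.03, was 0.21 on both TPM scales, 0.05 without Control replicate 2 and 0.22 without RC48 replicate 2, and ranged from -0.30 to 0.22 with a library left out. The cause of these shifts was not tested.

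The deviations of same-numbered libraries from their group means correlated at 0.002, -0.13 and 0.005, and those of differently numbered libraries at -0.11 to 0.13. With 3 libraries in each group, these values cannot show whether same-numbered libraries were prepared together. Under the replicate block the adjusted p was 0.0572 for STAT2 and 0.0886 for STAT3, the member called was STAT5A (log2 fold change 0.92, adjusted p 0.0308), which DESeq2 also called (adjusted p 0.00188), and 331 genes were called. JAK2 rests on 80 to 178 counts per library, the fewest of the 8 members.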
